A study of Arabidopsis thaliana with 4 samples.

Results

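The 200 brightest probe sets of wild-type Arabidopsis thaliana shoots were described here, out of 22746 probe sets on the array that are not controls. They were selected on measured values, as the 200 probe sets with the highest mean log2 level over the 2 wild-type arrays, after leaving out the plastid-encoded genes of the photosystems, the cytochrome b6f complex, the NDH complex, the ATP synthase and the large subunit of Rubisco. That exclusion took 44 plastid probe sets, 13 of which were brighter than the dimmest of the 200. Transcripts were measured on Affymetrix ATH1 arrays, on which a probe set is a group of short oligonucleotides for 1 or more transcripts, in above-ground tissue of plants grown on soil for 14 days. There were 2 arrays of php mutants and 2 arrays of wild-type plants (replicates I and II), and the labels say that every array pooled 3 samples derived independently. PHP (PLANT HOMOLOGOUS TO PARAFIBROMIN) is the plant counterpart of Cdc73, a subunit of the PAF1 complex, and the labels name neither the php allele nor the strain. No value of the mutated gene itself is used, which leaves the genotype labels unchecked by it.

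A green shoot spends much of its messenger RNA on a small number of tasks. Nuclear genes supply the light-harvesting antenna, small photosystem subunits and most enzymes of carbon fixation, and genes for cytosolic ribosomal proteins are read strongly wherever cells grow. The PAF1 complex travels with RNA polymerase II through transcribed genes and is needed for histone marks placed during elongation.

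Of the 200, 62 were assigned to 1 gene by the platform annotation, 12 to several genes, and 126 have no gene name here. Those 126 include 9 of the 10 brightest, and the tenth was assigned to 4 genes, so the top of the list is described by level only. The 10 brightest had wild-type levels from 14.73 to 15.56 and differences php minus wild-type from -0.11 to 0.03. An unadjusted p under 0.05 was reached by 0 of the 10, against 24.2% of all tested probe sets. Mean wild-type levels of the 200 on the log2 scale ran from 12.97 to 15.56, with the interquartile range spanning 0.85. Such levels also depend on how well each probe set binds, so the order is one of brightness and not of molecules per cell. At the limit the unnamed 257753_at and 256072_at stood just inside (12.97 each), and just outside stood AT1G15930, 253387_at and AT3G54210 (12.97, 12.97 and 12.96). Choosing on wild-type I alone kept 195 of the 200 and on wild-type II alone 196. Probe sets that by their name can bind several transcripts made up 14.5% of the 200 and 4.1% of all tested probe sets.

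The named members included 11 nuclear genes of the photosystems and thylakoid, 5 enzymes of carbon fixation and photorespiration, 2 of chlorophyll synthesis, 17 cytosolic ribosomal protein genes and 7 plastid-encoded genes. These roles were assigned after the values had been seen. The 4 measured flower and pollen genes had mean levels of at most 2.52 in php and 2.33 in wild-type, near the floor of the scale. The root-hair gene EXPA7 was at 1.93 and 1.92 on the php arrays and at 1.91 and 1.90 on the wild-type arrays. PYK10, a beta-glucosidase known from roots and seedlings, was bright, with 12.31 and 12.17 in php and 11.67 and 11.87 in wild-type. No seed storage gene was named here.

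No member passed the test between genotypes. Limma with Benjamini-Hochberg adjustment over 15922 probe sets called 0 of the 200 at an adjusted p under 0.05, against 5 of all tested probe sets (0.0314%), and the smallest adjusted p of a member was 0.083. At an unadjusted p under 0.05 there were 52 members, 13 higher and 39 lower in php, against a background of 24.2%, made of 11.3% higher and 12.9% lower. A looser adjusted p under 0.1 took in 9 members (background 3.24%), and their names and values are given with the groups below. The wild-type arrays both chose the members and enter this difference, so no test was made over the members together. The smallest two-sided p of an exact permutation test of 2 arrays against 2 is 0.333, and each p given here therefore depends on limma's model of the variance. The series' design text calls the 2 replicates biologically independent.

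The differences were small as well as uncalled. None of the 200 differed by at least 2-fold (background 1.07%), 5 were at least 1.2-fold higher in php (background 12.5%) and 12 at least 1.2-fold lower (background 14.6%). The median absolute difference between php and wild-type was 0.079 on the log2 scale for the members and 0.152 for all tested probe sets. Arrays of 1 genotype were also closer to each other among the members. The median absolute difference between the arrays was 0.057 in php and 0.048 in wild-type, against 0.113 in php and 0.088 in wild-type over all tested probe sets. For 64 members the wild-type arrays differed more from each other than the genotype means did, although single arrays vary more than means of 2. The largest gap between arrays of 1 genotype was 0.45 in php and 0.33 in wild-type. The members had a median wild-type level of 13.55, against 7.23 for all tested probe sets. Whether the arrays read differences in full at such bright levels was not tested.

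**Figure D1:**
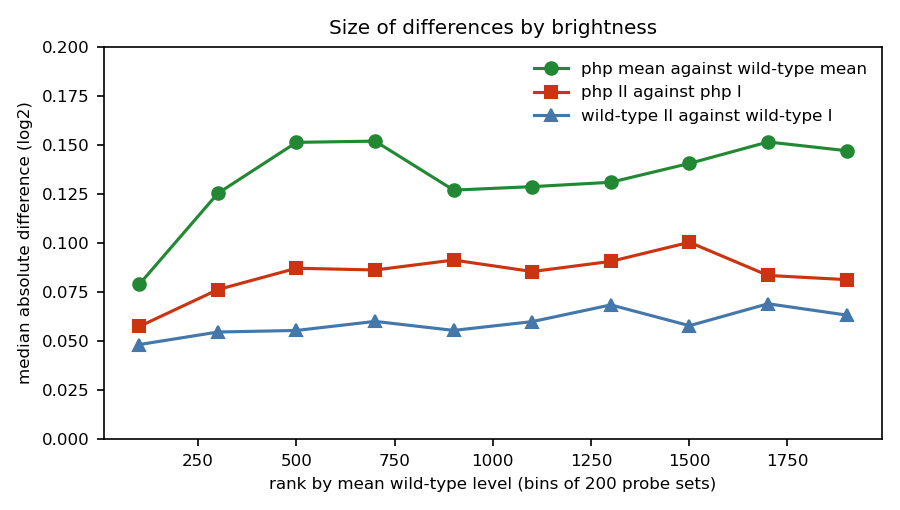
Median absolute log2 difference (vertical axis) for 10 bins of 200 probe sets ordered by mean wild-type level (horizontal axis, brightest at the left; the first bin holds the 200 members). Green circles compare the php mean with the wild-type mean, red squares the php arrays with each other and blue triangles the wild-type arrays with each other; the first bin has the smallest value of each of the 3, at 0.079, 0.057 and 0.048.

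With the deposited scaling, most member differences were negative (138 of 200, against 7768 of 15922 tested), a lean whose size depended on the scaling. Both php arrays lay below both wild-type arrays for 90 members (background 27.4%) and above them for 37 (background 33.2%), and the genotypes overlapped for 73. The 127 without overlap compare with a background of 60.5% in either direction. The median difference was -0.04 for the members and 0.01 for all tested probe sets. The next bins in brightness had similar medians, with -0.06 for ranks 201 to 400 and -0.04 for ranks 401 to 600, and ranks 1801 to 2000 were at 0.01. The wild-type arrays that chose the members also enter this value, so it was computed with other choices. Members chosen on wild-type I alone had a median of -0.04 against wild-type II, and members chosen on wild-type II alone one of -0.03 against wild-type I. The 200 brightest probe sets on the php arrays shared 175 with the members and had a median of -0.01, and the 200 brightest over all 4 arrays had a median of -0.02. Centring each array on its median put the members' median at -0.00 and gave 55 members lower and 63 higher on both php arrays. Over all tested probe sets 3521 were then lower and 6225 higher. Of the probe sets without overlap, 46.6% of the members and 36.1% of all tested were then lower. As deposited those shares were 70.9% and 45.2%, so the members still leaned lower than the background, but by less.

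**Figure D2:**
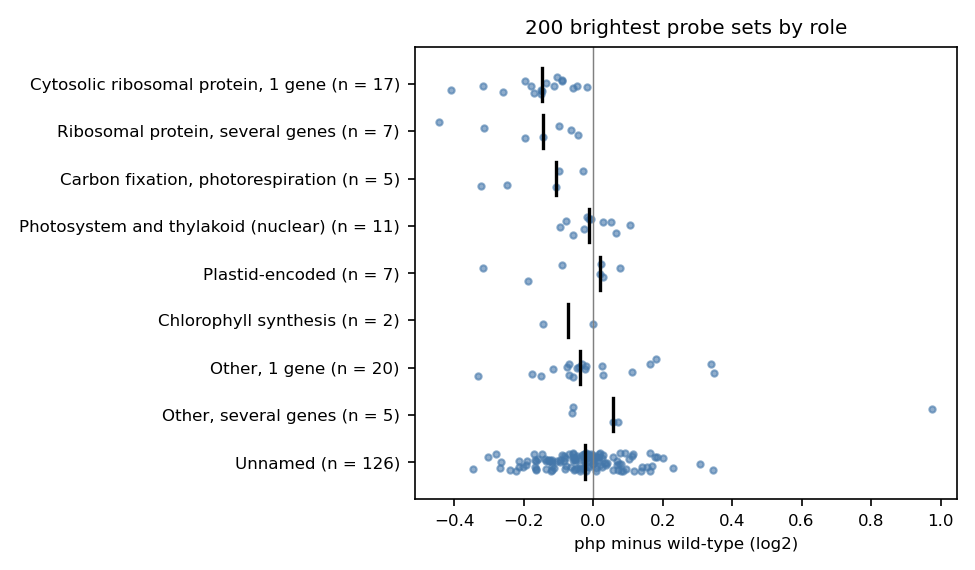
Log2 difference php minus wild-type (horizontal axis) of each of the 200 members, by role (rows); a point is 1 probe set and the black bar is the median of its row. All 24 probe sets of the 2 ribosomal rows lie below 0, the 11 photosystem and thylakoid genes lie between -0.09 and 0.11, and 1 probe set assigned to several genes stands apart at 0.98.

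Cytosolic ribosomal proteins build the small and large subunits of the ribosome that translates nuclear messages. The 17 ribosomal protein genes among the members came from 17 families. All 17 had a negative difference, against 7768 of 15922 tested probe sets (16 of the 17 after median centring of the arrays). Their median was -0.15, with a range from -0.41 to -0.02. For 13 of them both php arrays were below both wild-type arrays (background 27.4%) and 8 had an unadjusted p under 0.05 (background 24.2%). Only 2 were at least 1.2-fold lower, a share below the background of 14.6%, and 0 were called. AT5G16130, a small-subunit protein of family RPS7, had log2 levels of 12.53 and 12.76 in php and 13.05 and 13.06 in wild-type. The php arrays were both low, but apart from each other, and the difference was -0.41 (SE 0.09, limma adjusted p = 0.123), or 1.33-fold lower. AT2G27710, a P2 protein of the stalk of the large subunit, had 13.04 and 13.06 in php and 13.31 and 13.32 in wild-type, a difference of -0.26 with the arrays of each genotype close together (SE 0.04, limma adjusted p = 0.094).

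Other large-subunit members differed less or with more spread. AT3G62870 (RPL7a) had 12.78 and 12.93 in php and 13.14 and 13.20 in wild-type, a difference of -0.32. AT4G16720 (RPL15) had 12.78 and 12.88 in php and 13.01 and 13.05 in wild-type, a difference of -0.20. In both genes the php arrays were below the wild-type arrays (limma adjusted p = 0.118 and 0.155). The brightest ribosomal member, AT3G60245 (RPL37a), differed by only -0.05, with 14.21 on both php arrays against 14.30 and 14.22 on the wild-type arrays. A further 7 member probe sets were each assigned to several ribosomal protein genes, and all 7 had a negative difference, also after median centring, with a median of -0.14. The largest of them, 264679_s_at, singled out after its values had been seen, read 12.77 and 12.85 in php and 13.29 and 13.23 in wild-type, a difference of -0.44 (SE 0.05, limma adjusted p = 0.093). Ribosomal protein genes have near-identical copies, so a probe set assigned to 1 gene may still bind others of its family.

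Among the other genes of the family, the brighter ones leaned the same way and the dimmer ones did so less evenly. A list of 224 cytosolic ribosomal protein loci in 79 families had 130 with a probe set named here and 121 tested. The 104 that were tested and were not members had a median difference of -0.15, and for 62 of them both php arrays were below both wild-type arrays, against 8 above (background 27.4% and 33.2%). Among probe sets with a wild-type level of at least 10 that were not members, 68.4% of 79 ribosomal probe sets were lower on both php arrays and 1.27% higher, compared with 37.4% lower and 27.5% higher among 1739 other probe sets. The median differences of those sets were -0.17 and -0.02. Their median wild-type levels were 12.08 and 10.91, so the sets were not matched in brightness. Of all probe sets at ranks 401 to 600, with a median level of 12.06, 42.5% were lower and 24.5% higher. Below a level of 10, 25 ribosomal probe sets had a median of -0.11, with 8 lower and 7 higher on both php arrays and 10 that overlapped, and among 13863 other probe sets of that level 25.6% were lower and 34.3% higher. The other probe sets in both comparisons include unnamed ones, some of which may be ribosomal. Small-subunit genes (44 tested) had a median of -0.14 and large-subunit genes (77 tested) one of -0.16.

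Array by array, the median deviation of the 121 ribosomal probe sets from their own mean was -0.12 and -0.03 in php and 0.04 and 0.11 in wild-type. Both php arrays were thus below both wild-type arrays, but php I stood further down than php II, and without php I the median difference of the list was -0.09 instead of -0.15. Members not named as ribosomal had a median of -0.03 (176 probe sets), but 126 of them are unnamed and may include ribosomal genes. The 45 members assigned to 1 gene that is not ribosomal also had a median of -0.03. Among ribosomal genes outside the members, AT3G28500, of the P2 family, went the other way, with 6.18 and 6.36 in php and 4.48 and 4.52 in wild-type, and AT1G23410, a ubiquitin and RPS27a fusion gene, had the largest negative difference of the list, -0.98, with 7.06 and 7.53 in php and 8.13 and 8.41 in wild-type. Both were chosen after their values had been seen, and neither was called (limma adjusted p = 0.083 and 0.118). The list was assembled with these values known, so its counts are a description. In bulk tissue fewer cells of a type and less RNA per cell cannot be told apart.

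**Figure D3:**
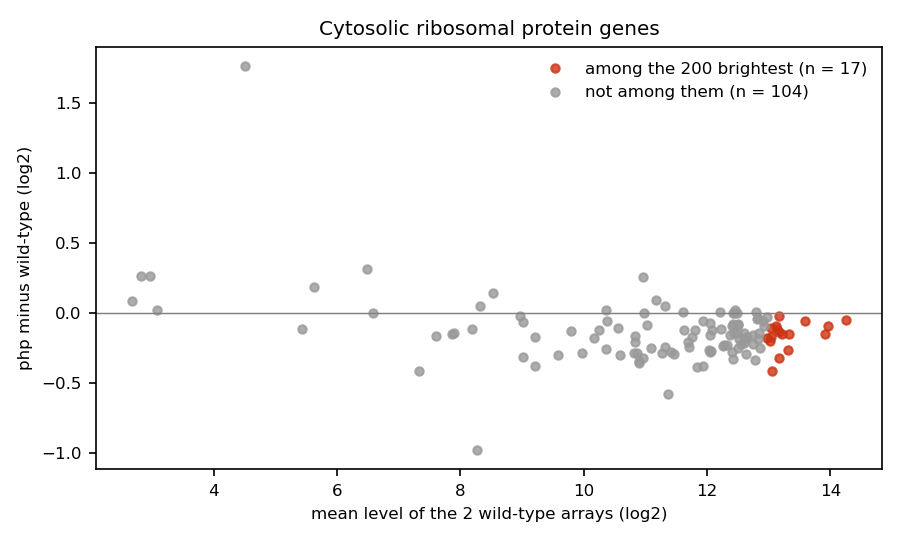
Log2 difference php minus wild-type (vertical axis) against mean wild-type log2 level (horizontal axis) for the 121 tested cytosolic ribosomal protein probe sets with 1 gene. Red points are the 17 among the 200 brightest and grey points the other 104; 101 of the 121 lie below 0, and the highest point is AT3G28500 at 1.77.

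The named members of light capture and electron transport showed no such shift, but they cover few of the genes. Named probe sets numbered 3 for 20 listed light-harvesting loci and 1 for 10 nuclear loci of electron transport and the ATP synthase. There were 2 for 13 nuclear loci of photosystem I and 2 for 11 of photosystem II. The 11 nuclear photosystem and thylakoid members had differences from -0.09 to 0.11 with a median of -0.01, which turned to 0.03 when arrays were centred on their medians. An unadjusted p under 0.05 was reached by 0 of the 11 (background 24.2%). The widest of their 95% confidence intervals had ends at -0.29 (PSB27) and 0.34 (AT1G51400, both named for this width), and the intervals of the brighter genes were narrower, from -0.11 to 0.10 for PSAE-1 and from -0.12 to 0.09 for PSAN. PSAE-1, a stromal subunit of photosystem I and the brightest of the group, had 14.70 and 14.73 in php and 14.71 and 14.73 in wild-type. PSAN, a lumenal subunit of photosystem I, had 14.21 and 14.17 in php and 14.20 and 14.21 in wild-type, and both genes overlapped between genotypes.

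The antenna genes LHCB4.1 and LHCB4.2, which encode the minor light-harvesting protein CP29, had small differences of opposite sign. LHCB4.1 had 14.55 and 14.47 in php and 14.42 and 14.47 in wild-type, a difference of 0.07 (limma adjusted p = 0.440). LHCB4.2 had 14.37 and 14.29 in php and 14.42 on both wild-type arrays, a difference of -0.09 (limma adjusted p = 0.30). Neither passed the test, and single arrays moved both values, LHCB4.1 from 0.03 without php I to 0.10 without php II and LHCB4.2 from -0.14 without php I to -0.05 without php II. The difference between the paralogs was not tested. PSBW and PSBY, small subunits of photosystem II, differed by -0.06 and 0.05, and PSBY was at -0.01 without php I. ATPC1, the regulatory gamma subunit of the chloroplast ATP synthase, had 14.10 and 14.07 in php and 14.06 and 14.07 in wild-type, a difference of 0.03.

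The 5 members of carbon fixation and photorespiration had negative differences (4 of them after median centring) with a median of -0.11. An unadjusted p under 0.05 was reached by 3 of the 5 (background 24.2%), though 0 were called. Not every such enzyme leaned this way: the photorespiratory hydroxypyruvate reductase HPR, just below the members in brightness, had 13.12 and 13.03 in php and 13.00 and 12.92 in wild-type, a difference of 0.12. The largest member differences belonged to the glycine decarboxylase complex, which releases carbon dioxide during photorespiration in mitochondria. AT1G11860, its T-protein, had 12.76 and 12.77 in php and 13.05 and 13.12 in wild-type, a difference of -0.32 (SE 0.05, limma adjusted p = 0.094). AT1G32470, an H-protein of the same complex, had 12.75 and 12.80 in php and 12.97 and 13.07 in wild-type, a difference of -0.25 (SE 0.05, limma adjusted p = 0.123). For both genes the genotypes did not overlap.

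The Calvin cycle members differed less. SBPASE (sedoheptulose bisphosphatase) had 12.98 and 12.97 in php and 13.06 and 13.09 in wild-type, a difference of -0.11. PRK (phosphoribulokinase) had 13.25 and 13.28 in php and 13.38 and 13.35 in wild-type, a difference of -0.10. RCA (Rubisco activase), the brightest of the group, had 14.54 and 14.48 in php and 14.54 on both wild-type arrays, so php I was level with wild-type to 2 decimals. In chlorophyll synthesis, PORB, a protochlorophyllide oxidoreductase, overlapped between genotypes, and AT1G74470, the geranylgeranyl reductase, singled out after its values had been seen, had 14.11 and 14.04 in php and 14.23 and 14.21 in wild-type (limma adjusted p = 0.166).

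The 7 plastid-encoded members were the least even between arrays. They were ccsA and cemA, matK, the RNA polymerase subunit gene rpoA, and the ribosomal protein genes rps3, rps19 and rpl33. The genotypes overlapped for 6 of the 7, against 6284 of 15922 tested probe sets. Among all 26 tested plastid-encoded probe sets that were not left out, 22 overlapped. For the 7 members the median absolute difference between single arrays was 0.283 in php and 0.156 in wild-type. Between the genotype means it was 0.077. The brightest, ccsA, which encodes a factor for attaching haem to cytochromes, had 13.62 and 13.69 in php and 13.71 and 13.56 in wild-type. The exception to the overlap was rpoA, with 12.70 and 12.91 in php and 13.24 and 13.01 in wild-type, a difference of -0.32 (SE 0.12, limma adjusted p = 0.215) that ran from -0.44 without wild-type II to -0.20 without wild-type I. For rps3 the values were 12.71 and 13.16 in php and 13.21 and 13.04 in wild-type, and its difference of -0.19 turned to 0.04 without php I. The 44 plastid photosynthesis probe sets left out of the members had a median difference of 0.14, with 18 higher on both php arrays and 1 lower (background 33.2% and 27.4%). Their median deviations were -0.02 and 0.16 on the php arrays and 0.03 and -0.12 on the wild-type arrays, so php I was not above wild-type I, and the median absolute difference between arrays was 0.228 in php and 0.140 in wild-type.

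**Figure D4:**
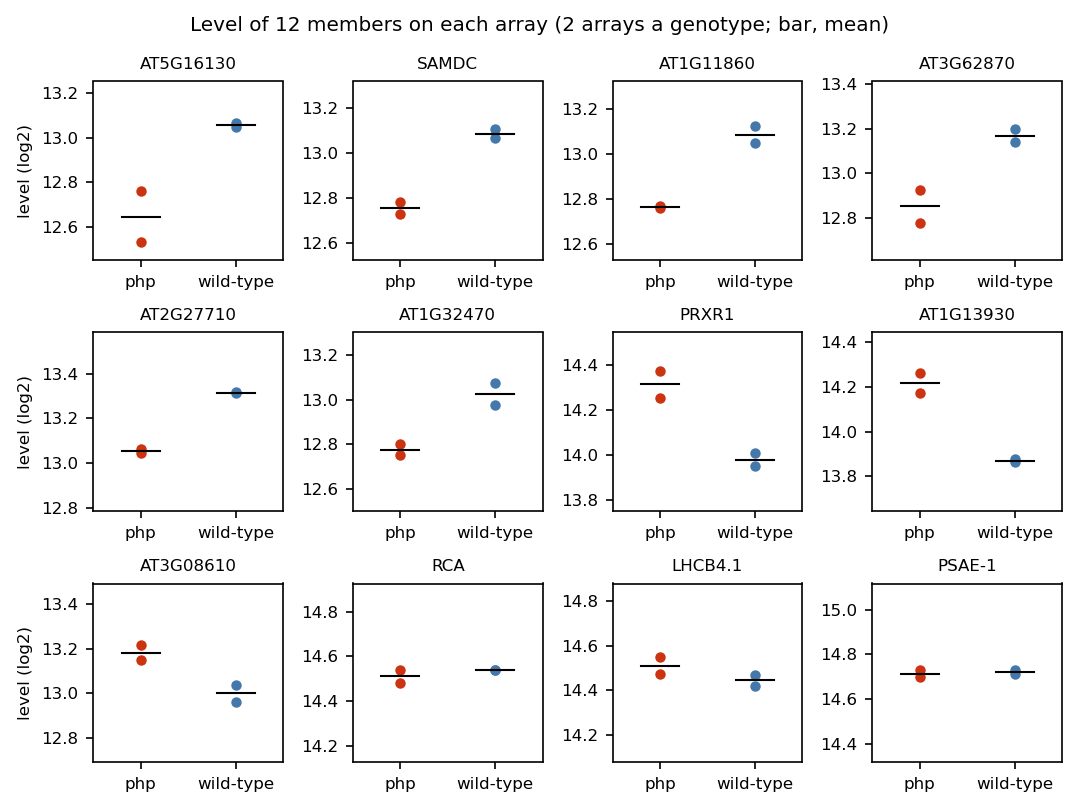
Log2 level of 12 members on each array (vertical axes, each spanning 0.8), with php at the left in red and wild-type at the right in blue; points are arrays and bars are means of 2. Only PSAE-1 overlaps between genotypes, and for RCA, LHCB4.1 and PSAE-1 the values of each gene lie within 0.13 of each other.

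Among the remaining named members, SAMDC had the most negative difference. It encodes an S-adenosylmethionine decarboxylase of polyamine synthesis, and had 12.73 and 12.78 in php and 13.07 and 13.11 in wild-type, a difference of -0.33 (SE 0.04, limma adjusted p = 0.093). AT1G54410, a small dehydrin, had 13.48 and 13.53 in php and 13.64 and 13.72 in wild-type, a difference of -0.18. AT1G66100, a thionin, had 13.37 and 12.92 in php and 13.23 and 13.30 in wild-type, so the php arrays lay on either side of the wild-type arrays, and its difference of -0.12 became 0.11 without php II. GAPC2, the cytosolic glyceraldehyde-3-phosphate dehydrogenase often used as a reference gene, overlapped between genotypes with a difference of -0.02.

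Some named members read higher in php. AT1G13930 had 14.26 and 14.17 in php and 13.88 and 13.86 in wild-type, a difference of 0.35 (SE 0.05, limma adjusted p = 0.093). PRXR1, a class III peroxidase, had 14.38 and 14.26 in php and 13.95 and 14.01 in wild-type, a difference of 0.34 (SE 0.06, limma adjusted p = 0.106). These 2 were the named genes with the largest positive differences, and in both every php array was above every wild-type array. AT3G08610, a subunit of mitochondrial complex I, differed by 0.18, APA1, an aspartic proteinase, by 0.16 (0.06 without php I), AT2G45180, of the lipid transfer protein family, by 0.11 and AT1G09310 by 0.03, also without overlap and without passing the test.

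The largest difference of all 200 was in 246481_s_at, which the annotation assigns to 2 genes and which was singled out after its values had been seen. It read 13.98 and 14.04 in php and 12.96 and 13.11 in wild-type, so both php arrays were far above both wild-type arrays. The difference was 0.98 (95% confidence interval 0.79 to 1.17, limma adjusted p = 0.083), or 1.97-fold. It passed at an adjusted p of 0.039 when the lowest 50% of probe sets were left out. The 126 unnamed members ranged from -0.35 to 0.34 with a median of -0.02 (0.02 after median centring), and 27 were higher and 55 lower on both php arrays (background 33.2% and 27.4%). The 3 of them with an adjusted p under 0.1 were all lower in php, with differences of -0.35 for 258239_at, -0.28 for 245356_at and -0.27 for 263761_at.

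The ranking itself was largely shared between genotypes. Of the 25 members that were not among the 200 brightest on the php arrays, 6 were cytosolic ribosomal protein genes (17 of all 200 members). Another 2 were shared ribosomal probe sets (7 of all 200). The lowest of the 25, AT5G16130, stood at rank 294 in php and 178 in wild-type. Genes that entered on the php arrays included HPR, described above, with a mean of 13.07 in php and 12.96 in wild-type, TPI, a triosephosphate isomerase, with 13.09 in php and 12.96 in wild-type, and AILP1 with 13.18 in php and 12.82 in wild-type. These 3 were chosen after their values had been seen. Entering or leaving the 200 largely fixes the direction of a difference, so the directions in this paragraph are not a separate result.

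Array medians over all probe sets were 5.58 and 5.60 in php and 5.63 and 5.63 in wild-type. Each of the 18 probe sets for bacterial RNAs added just before hybridization read higher in php on both arrays (median difference 0.35), while the 24 for RNAs added before labelling had a median difference of -0.08. Member differences above are therefore relative to the authors' normalization. With the arrays centred on the RNAs added before hybridization, all tested probe sets moved by a median of -0.38 and the members' median was -0.43.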

How the data were processed

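The deposited values are log2 levels of 22810 probe sets on 4 arrays, which per the series' design text the authors background-corrected and normalized with GCRMA. The submitters' processing notes also list MAS5 without a role, and give no software versions. No further normalization was applied. After removing 64 control probe sets and the lowest 30% by mean level (up to 2.64), 15922 were tested with limma 3.58.1 in R 4.3.3 (lmFit, eBayes with a variance trend, two-sided, Benjamini-Hochberg over all tested), after a test on simulated data. All 200 members passed the filter. Arrays have no read depth, and each genotype has 2 of them. Gene names came from the platform annotation (13513 probe sets with 1 gene, 503 with several, 8730 non-control ones unnamed), and all 62 single-gene members matched a RefSeq TAIR10.1 locus. The text gives the 10 brightest members by their range, as 9 are unnamed and 1 has several genes, and names those at the limit, any called, the 10 largest differences each way among single-gene members without overlap, and the brightest and 2 largest of each gene list; 1 gene that this rule takes is not reported here. Of 17 short lists, 8 held 14 members, none of them called, and 5 had no named probe set. Members and lists were chosen with earlier results of these data known, and the ribosomal list was written from general knowledge after the values had been seen. Alternatives covered filters, variance models, scaling, a replicate block, leaving out arrays and other member choices.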

Additional observations from a re-analysis of the deposited data

Results flagged for a closer look

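The 18 probe sets for bacterial RNAs added before hybridization lie outside the comparison of plant transcripts, and their median log2 difference php minus wild-type was 0.355, with a range from 0.22 to 0.51. The control probe set for 25S ribosomal RNA, also unused above, differed by 1.18 on the log2 scale, and the one for 5S ribosomal RNA by 1.09, both higher on both php arrays.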

How the results depend on the processing

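No member was called with no filter, either other variance model, median centring, quantile normalization, 100 or 400 members, single-gene members, or members chosen on the php arrays or all 4 arrays. One, 246481_s_at, was called with the lowest 50% left out or with arrays centred on the members (1 in each), and 9 had an adjusted p under 0.1. Centring arrays on the hybridization spike-ins, an alternative chosen after seeing the data, moved all tested probe sets by a median of -0.38, called 179 members (178 lower in php) and 64.4% of all tested, left 1 member with a positive difference, and put the members' median at -0.426 and the ribosomal list's at -0.532; relative to that shift neither moved. The members' median of -0.043 was -0.0022 under median centring, -0.0044 centred on the members, -0.0149 for the 200 brightest in php, -0.0225 over all 4 arrays, -0.0225 for the brightest 100 and -0.0649 for single-gene members. Leaving out 1 array called 0 members each time and gave a members' median from -0.053 to -0.029 and a ribosomal median from -0.197 to -0.087. Under median centring PSAE-1 turned to 0.0329, PSAN to 0.0219 and GAPC2 to 0.0208, under centring on the members they turned to 0.0307, 0.0197 and 0.0186, and quantile normalization put PSAE-1 at 0.0328. Leaving out 1 array gave ranges of -0.024 to 0.0083 for PSAE-1, -0.014 to 0.115 for PSBY, -0.052 to 0.013 for GAPC2, -0.340 to 0.106 for AT1G66100 and -0.415 to 0.037 for rps3; the cause was not tested. Arrays share only a replicate number: same-numbered deviations correlated at 0.518 over all tested and -0.102 over the members (across probe sets, which are not independent), and with the replicate number as a block 0 members were called and 54 had an unadjusted p under 0.05.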
